A study of Arabidopsis thaliana with 69 samples.

Results

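Transcripts encoded by the chloroplast and mitochondrial genomes were described in Arabidopsis thaliana dcl1-5 embryos at the globular stage. The members were all entries of the mRNA-seq tables whose identifier begins with ATCG (chloroplast) or ATMG (mitochondrion): 297 rows for 296 genes, of 59051 rows for 37688 genes. The chloroplast contributed 134 of these genes and the mitochondrion 162. The 3 libraries (libraries 1, 2 and 3, after their biological replicate numbers) came from Col-0 plants that carry dcl1-5, a mutant allele of DICER-LIKE1, the enzyme that cuts plant miRNAs from their precursors. Mutant embryos were picked by their abnormal shape from the seeds of self-fertilized heterozygous plants, and each library is a pool of embryos. They belong to a series of 69 samples that also holds small RNA and cleavage product (nanoPARE) libraries. Wild-type mRNA-seq was not analysed here, so the levels below describe dcl1-5 embryos and are not changes caused by the mutation.

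Plastids and mitochondria keep small genomes of their own. The chloroplast genome encodes core subunits of the photosystems, the cytochrome b6f complex, the ATP synthase, the NDH complex and Rubisco, along with rRNAs, tRNAs and part of the plastid ribosome. Its genes are read by a plastid-encoded RNA polymerase, whose subunits are the rpo genes, and by nuclear-encoded phage-type polymerases. The mitochondrial genome encodes subunits of the respiratory complexes and of the ATP synthase, proteins of cytochrome c maturation, ribosomal proteins, rRNAs and tRNAs. Most organelle mRNAs lack a long poly(A) tail, and in plants a short tail mostly marks an organelle RNA for decay. The libraries were made by Smart-seq2, which primes reverse transcription with oligo(dT), so the values measure organelle RNA that this priming captured. How capture differs between transcripts was not tested.

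The libraries held 28896594, 22337002 and 25699754 estimated counts. DCL1 itself had 4, 5 and 4 estimated counts, a level that cannot by itself check the genotype because no wild type was set beside it. All 7 embryo marker genes were detected, with 6.92 to 248 TPM per gene and library (TPM scales counts to transcript length and library size). LEC1, an embryo transcription factor, had 231, 224 and 248 TPM. The 5 endosperm markers summed to 7.40, 8.92 and 3.90 TPM, and the 5 seed coat markers to 13.1, 17.9 and 14.1 TPM, of which BAN, a proanthocyanidin enzyme of the seed coat, gave 11.1, 16.4 and 13.0 TPM. The order of the seed coat sum is that of BAN, while TT12, TT10 and TT8 were at most 0.814 TPM and highest in library 1, and TTG2 was at most 0.293 TPM and highest in library 2. The part of seed coat RNA in the organelle values was not tested.

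The tables give identifiers without gene symbols. Symbols were taken from the nanoPARE tables (4 genes), from RefSeq notes on nuclear relatives (5 chloroplast and 15 mitochondrial genes), or from a spliced length that fits a single RefSeq gene of that organelle (64 chloroplast and 12 mitochondrial genes). A further 34 chloroplast and 27 mitochondrial rows had the length of tRNAs only and were placed in that class without a name. For 10 chloroplast rows the length was shared by different genes, and 18 chloroplast and 107 mitochondrial genes stayed without a name. Among 14 genes with a name from another source, the length match gave the same symbol for all but ATCG00430, noted as photosystem II protein G and matched to ndhK.

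Chloroplast transcripts took 6.78, 7.85 and 6.19% of all TPM in libraries 1, 2 and 3 (6.94% ± 0.84, SD, n = 3). Mitochondrial transcripts took 2.63, 2.84 and 2.40% (2.62% ± 0.22). Library 2 had the highest and library 3 the lowest share for both organelles. Summed chloroplast TPM was 2.58, 2.77 and 2.58 times the mitochondrial sum (log2 ratio 1.40 ± 0.06), higher in 3 of 3 libraries, and a two-sided exact sign-flip permutation test gave p = 0.25, the smallest p that 3 libraries allow. The order turned round in estimated counts, where the chloroplast held 2.99, 3.51 and 2.25% and the mitochondrion 3.36, 3.65 and 2.93% of each library. TPM divides a count by the effective length of the transcript, so a few reads on a very short transcript weigh heavily. Lengths are those of the annotated entries, and an entry named by length has the length of the RefSeq coding sequence, rRNA or tRNA. The length of the RNAs themselves was not measured. Chloroplast transcripts under 100 bases held 27.5% of chloroplast TPM but 1.22% of chloroplast counts, and those from 100 to under 300 bases held 45.4% of TPM and 7.82% of counts. Transcripts of at least 300 bases held 27.1% of chloroplast TPM and 91.0% of counts. In the mitochondrion, transcripts of at least 300 bases held 94.9% of TPM and 99.8% of counts.

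**Figure D1:**
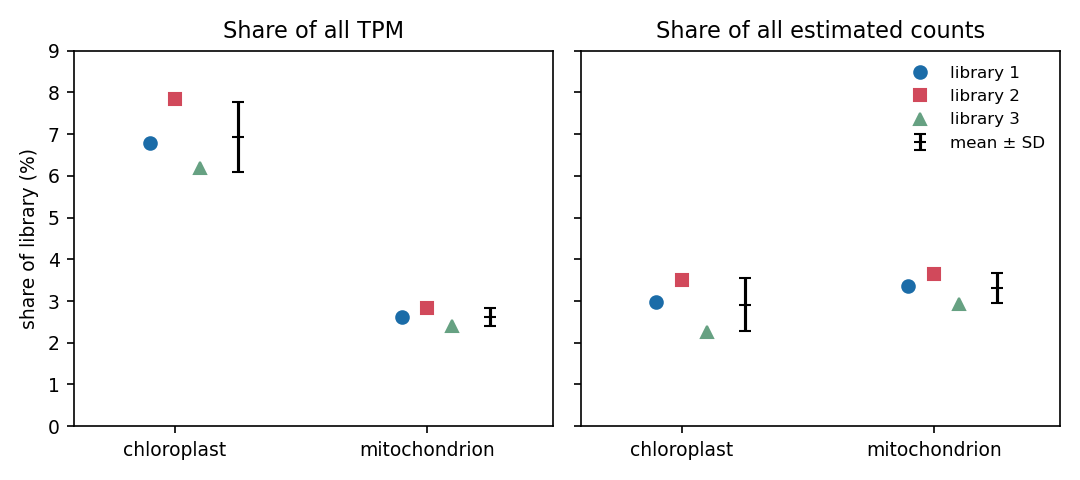
Share of each dcl1-5 mRNA-seq library taken by chloroplast and mitochondrial transcripts (y axis, percent), as TPM on the left and as estimated counts on the right; symbols are the 3 libraries and black bars the mean ± SD. The chloroplast lies above the mitochondrion in TPM (6.19 to 7.85% against 2.40 to 2.84%) and below it in counts in every library.

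Among the 134 chloroplast genes, 85 had a mean of at least 100 TPM and 11 a mean of at least 1000 TPM. The 11 count the rRNA genes rrn23S and rrn4.5S at both of their entries, which hold equal values. Among the 162 mitochondrial genes the numbers were 13 and 2, and the share over all genes was not computed. The 10 leading chloroplast genes held 53.5% of chloroplast TPM. Of these 10 genes, 7 were shorter than 300 bases. The coding sequences of the 3 short protein-coding leaders are shown because they are the highest protein-coding entries of the chloroplast by TPM and are all short. Across 57 single-copy chloroplast coding sequences, mean TPM had a Spearman correlation of -0.43 with length. It was -0.15 across the 38 of at least 300 bases and -0.14 across the 19 shorter ones, a description without a test. Not every short one was high: petN (90 bases) had a mean of 48.2 TPM and psbN (132 bases) of 96.0 TPM. The 3 sequences shown were read from the RefSeq chloroplast genome of assembly TAIR10.1 on the coding strand, with runs of at least 5 A in capitals.
psbM: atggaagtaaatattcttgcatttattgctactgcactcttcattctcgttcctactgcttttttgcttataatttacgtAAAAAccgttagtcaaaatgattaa
rpl32: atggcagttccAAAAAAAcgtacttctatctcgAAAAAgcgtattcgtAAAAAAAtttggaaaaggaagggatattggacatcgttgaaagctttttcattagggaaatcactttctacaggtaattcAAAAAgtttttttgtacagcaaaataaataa
psbK: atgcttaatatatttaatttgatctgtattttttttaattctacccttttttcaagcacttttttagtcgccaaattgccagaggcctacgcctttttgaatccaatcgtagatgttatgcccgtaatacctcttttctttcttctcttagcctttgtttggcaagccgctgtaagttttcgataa

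The psbM coding sequence spans 105 bases (chloroplast 28707 to 28811, minus strand), rpl32 159 bases (113449 to 113607, plus strand) and psbK 186 bases (7017 to 7202, plus strand). The runs of A differ between them: psbM has 1, rpl32 has 4 and psbK has 0. Across the 57 single-copy chloroplast coding sequences with a matched row, 39 (68.4%) hold such a run. The longest run ranged from 2 to 14 bases with a median of 6, and its Spearman correlation with mean TPM was -0.22 across all 57 genes, 0.07 across the 38 of at least 300 bases and 0.10 across the 19 shorter ones, a description without a test. The sign of the pooled value thus did not hold within either length range.

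psbM, which encodes a small membrane subunit of photosystem II, was the highest chloroplast entry with 6985, 12550 and 8703 TPM from 8116, 11482 and 8449 estimated counts. It was highest in library 2. Its effective length was 40.6 bases, and it ranked 7 among all genes by TPM but 421 by counts. psbK, another small photosystem II subunit, had 2454, 4278 and 2592 TPM and was also highest in library 2. rpl32, a protein of the large subunit of the plastid ribosome, had 4522, 4713 and 4615 TPM and was nearly level across the libraries. atpE, the epsilon subunit of the chloroplast ATP synthase, had 2042, 2166 and 1899 TPM. The 3 leading entries of tRNA length were ATCG00390, ATCG00030 and ATCG00010, with mean levels of 5136, 3274 and 3253 TPM. Their TPM rested on 2294, 1382 and 1471 estimated counts on average.

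The 23S rRNA of the plastid ribosome (rrn23S) had the most chloroplast reads, with 186197, 186858 and 106961 estimated counts at each of its 2 entries and 2381, 3041 and 1622 TPM. Each entry ranked 6 of all genes by counts and was lowest in library 3. Together the 2 entries had a mean of 4696 TPM. The 16S rRNA had 755, 1084 and 498 TPM at each entry, with the same order of libraries. How rRNA entered oligo(dT)-primed libraries was not tested. The 2 entries of each rRNA had the same values because they lie in the inverted repeat. In all, 17 sets of 2 chloroplast entries had equal length and equal values in every library, and together they held 22.1% of chloroplast TPM. Both entries of a set are counted as genes in the numbers of chloroplast genes given here. For the 7 such sets with a name, the 2 copies in the reference were identical in sequence in 7 of 7, so the reads of a copy cannot be told apart and the authors' estimates divide them evenly.

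**Figure D2:**
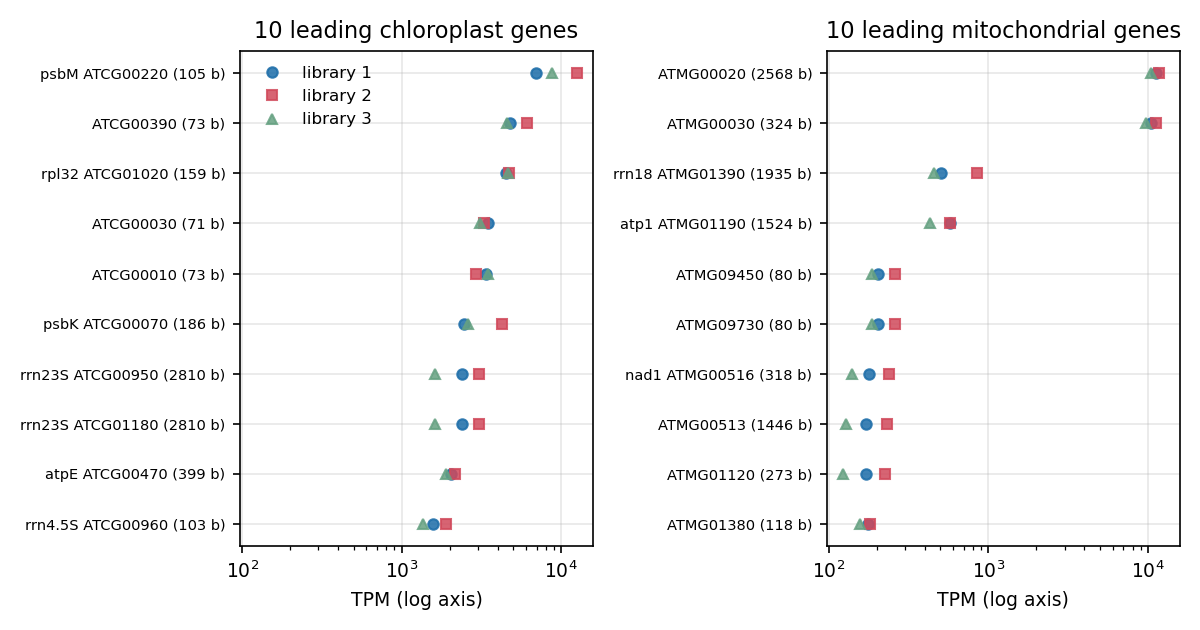
TPM (x axis, log scale) of the 10 chloroplast and 10 mitochondrial genes with the highest mean, with gene length in bases (b) beside the name; symbols are the 3 libraries. psbM reached 12550 TPM in library 2, and ATMG00020 and ATMG00030 lie between 9665 and 11654 TPM, above all other mitochondrial genes.

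Photosystem II genes as a class summed to 13379, 21904 and 15069 TPM, and were highest in library 2 for 14 of 15 genes. Library 2 was also highest for 59 of the 129 chloroplast genes with a mean of at least 10 counts and for 3709 of all 19325 such genes of the tables. psbB, which encodes the core antenna protein CP47, had 121, 169 and 82.4 TPM. psbC, for the antenna protein CP43, had 69.4, 104 and 71.1 TPM. The entries of 1062 bases, the length of both psbA and psbD, had 48.4 and 89.7 TPM on average. Photosystem I summed to 1779, 2276 and 2064 TPM over 3 matched genes. psaB and psaA, which encode the reaction centre core, had the highest means of the longer photosystem genes, with 658, 879 and 793 TPM for psaB and 448, 670 and 526 TPM for psaA. rbcL, the large subunit of Rubisco, had 116, 146 and 99.0 TPM. psaA, psaB, psbB, psbC and rbcL were thus all highest in library 2.

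The matched cytochrome b6f genes summed to 1012, 1314 and 869 TPM, led by petL, a small subunit, with a mean of 522 TPM. petA, which encodes cytochrome f, had 120, 116 and 91.9 TPM. The ATP synthase genes summed to 2923, 3058 and 2744 TPM, and atpB, the beta subunit, had 760, 777 and 755 TPM. The NDH complex genes summed to 435, 447 and 360 TPM over 8 genes. Its members ranged from ndhH at 9.04 TPM to ndhC at 168 TPM on average.

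The rpo genes and most ribosomal protein genes had another order of libraries than the photosystem genes. The 4 rpo genes, which encode the plastid polymerase, summed to 612, 431 and 490 TPM, and each was highest in library 1 and lowest in library 2. rpoA had 416, 324 and 357 TPM, rpoC1 had 90.5, 51.4 and 58.0 TPM, rpoC2 had 82.6, 40.9 and 60.5 TPM, and rpoB had 23.2, 14.4 and 15.1 TPM. Of the 20 plastid ribosomal protein entries, 15 were highest in library 1 and 14 were lowest in library 2. These entries hold rpl2, rpl23 and rps7 at 2 copies each with equal values, so they are not 20 separate genes. Over the 129 chloroplast genes with a mean of at least 10 counts, 64 were highest in library 1 and 34 lowest in library 2, and over all 19325 such genes of the tables, there were 6345 highest in library 1 and 10218 lowest in library 2. rps3, of the small ribosomal subunit, had 312, 130 and 209 TPM. rps14, of the same subunit, had 161, 221 and 160 TPM and was highest in library 2.

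In the group of others, accD, a subunit of plastid acetyl-CoA carboxylase, led with 243, 254 and 187 TPM. clpP, the catalytic subunit of the Clp protease, had 139, 89.4 and 95.6 TPM. ycf2, an essential gene whose product belongs to a plastid ATPase complex, had 68.2, 48.0 and 46.6 TPM at each of its 2 entries. ycf1, which encodes a part of the protein import machinery, had 134, 71.8 and 94.9 TPM at its full-length entry of 5361 bases (ATCG01130). Its short entry of 1032 bases (ATCG01000) had 6.98, 32.3 and 24.4 TPM, with the lowest value in the library where the long entry was highest. The first 1030 bases of both coding sequences are identical in the reference, so the split of reads between them rests on the estimate.

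accD, rpoB, rpoC1, rpoC2 and ycf2 are known to be read by the nuclear-encoded polymerase, and photosystem genes and rbcL to need the plastid-encoded one. The 6 entries of the first group summed to 576, 456 and 414 TPM and the 19 entries of the second to 15274, 24325 and 17232 TPM. In the first group ycf2 stands at 2 entries with equal values. The second sum was 26.5, 53.3 and 41.6 times the first, lowest in library 1 and highest in library 2. Much of the second sum came from 2 short entries, psbM (6985, 12550 and 8703 TPM) and psbK (2454, 4278 and 2592 TPM). The size of the ratio therefore depends on the TPM of short entries, and it was not computed in estimated counts. Each gene was also set against its own mean over the libraries. In library 2 the median photosystem or rbcL gene stood at 1.22 times its mean and the median gene of the first group at 0.85 times, with 1.08 for all 129 chloroplast genes with a mean of at least 10 counts and 0.90 for all 19325 such genes of the tables. Library 2 was also the shallowest library. With 3 libraries of 1 group there is no contrast to test, and these orders describe the libraries.

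**Figure D3:**
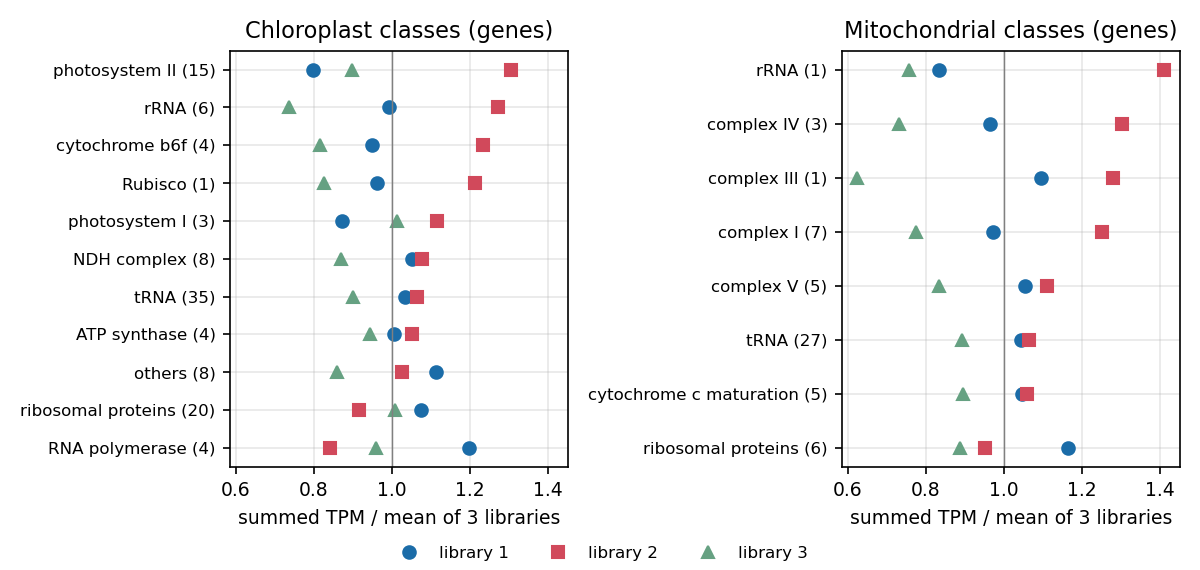
Summed TPM of each gene class in each library, divided by the mean of the 3 libraries (x axis), for chloroplast classes on the left and mitochondrial classes on the right, with the number of genes in brackets. Library 2 is highest for most classes of both organelles, among them photosystem II, plastid rRNA and respiratory complexes I, III and IV. It is lowest for plastid RNA polymerase and plastid ribosomal protein genes.

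Nuclear genes that work with the organelle genomes were measured in the same libraries. The 3 organelle phage-type polymerases RPOTm, RPOTp and RPOTmp ranged from 1.21 to 2.99 TPM. The 6 sigma factors, nuclear-encoded subunits that direct the plastid polymerase to its promoters, summed to 30.0, 23.7 and 36.3 TPM. SIG2 had 9.19, 5.61 and 10.5 TPM, and SIG4 had 2.01, 4.05 and 0 estimated counts. The 13 nuclear photosynthesis genes summed to 7496, 9719 and 10193 TPM, led by RBCS1A, a small subunit of Rubisco, with 3613, 4282 and 4641 TPM. The 10 nuclear respiration genes summed to 1538, 1461 and 1570 TPM. The sigma factor sum was lowest in library 2, as were 10218 of the 19325 genes with a mean of at least 10 counts, and the nuclear photosynthesis sum was highest in library 3, as were 9271 of them.

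Mitochondrial RNA was concentrated in 2 entries. ATMG00020 (2568 bases) had 11185, 11654 and 10390 TPM from 797269, 652787 and 624803 estimated counts, and ranked 5 of all genes by TPM and 2 by counts. ATMG00030 (324 bases) had 10411, 11176 and 9665 TPM. Together they held 82.2, 80.5 and 83.6% of mitochondrial TPM, and the other 160 mitochondrial genes held 0.467, 0.553 and 0.393% of all TPM. No source used here names either entry. The mitochondrial rRNA that RefSeq calls rrn26 has 3169 bases, a length that no mitochondrial row has. The length match therefore could not place rrn26, which may still be among the entries without a name, ATMG00020 included.

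rrn18, the small-subunit rRNA, came next with 502, 851 and 456 TPM, highest in library 2. atp1, the alpha subunit of the mitochondrial ATP synthase, led the protein-coding genes with a name at 576, 572 and 430 TPM. Of the other complexes, nad1 (ATMG00516), a part of complex I, had 180, 237 and 141 TPM. cox1, the core subunit of complex IV, had 156, 199 and 102 TPM. cob, the cytochrome b of complex III, had 67.1, 78.4 and 38.3 TPM. These 3 genes shared the order of libraries, highest in library 2 and lowest in library 3, which was also that of the mitochondrial share. Of the 66 unnamed mitochondrial entries with a mean of at least 10 counts, 31 were highest in library 2 and 37 lowest in library 3. Other classes differed: 3 of 5 complex V genes were lowest in library 1, and 4 of 5 such ribosomal protein genes were highest in library 1. ccmFN1 led cytochrome c maturation with a mean of 40.5 TPM, and rpl16 led the mitochondrial ribosomal proteins with 53.0, 52.7 and 47.2 TPM. The remaining leaders have no name: ATMG09450 and ATMG09730, with equal values and a mean of 217 TPM, ATMG00513 with 176 TPM, ATMG01120 with 173 TPM and ATMG01380 with 170 TPM. ATMG09450 and ATMG09730 have 80 bases each, and their TPM rested on 120 estimated counts each on average. ATMG00513 has 1446 bases and had a mean of 6006 counts.

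At least 10 estimated counts in every library were found for 214 of the 296 organelle genes, against 47.6% of all genes in the tables. The share was 95.5% (128 of 134) in the chloroplast and 53.1% (86 of 162) in the mitochondrion. At 0 in every library were 22 mitochondrial genes and 1 chloroplast gene (ATCG09900, 32 bases). A count of 3 would have given these mitochondrial genes between 0.121 and 52.6 TPM, depending on length, which covers counting error only. Among the genes at 0 was the mitochondrial ribosomal protein gene rps7.

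Several mitochondrial entries at or near 0 have a near-identical match in the nuclear genome. A large copy of the mitochondrial genome lies on chromosome 2 of Arabidopsis. Sequences of 22 of the 35 named RefSeq mitochondrial protein and rRNA genes matched chromosome 2 (TAIR10.1) over at least 95% of their length at 99% identity or more, all between positions 3239693 and 3503476, and 16 of them were identical. RefSeq notes link 43 nuclear genes between AT2G07660 and AT2G07799 to 42 mitochondrial genes. Over the libraries, the nuclear entry held more estimated counts in 28 of these 43, the mitochondrial entry in 10, and both held equal counts in 5. In 8 the mitochondrial entry was at 0 while its nuclear match had counts, and in 3 the reverse held. These counts are not scaled to length. Many nuclear entries are longer than their match, such as AT2G07718 with 5799 bases against 942 for ATMG00590, and a few are shorter. In TPM the order can therefore differ, as for cob below.

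rps7 (ATMG01270) had 0, 0 and 0 estimated counts, against 1150, 1045 and 805 at its nuclear match AT2G07696. The 447-base RefSeq coding sequence is identical to chromosome 2 from 3351340 to 3351786. atp9 (ATMG01080), the ring subunit of the ATP synthase, had 44.5, 63.2 and 42.6 counts, against 3784, 4800 and 3657 at AT2G07671. nad3 (ATMG00990), of complex I, had 96.7 counts in library 2 and under 1 in the others, against 1669, 1302 and 1191 at AT2G07751. Nearly all counts of these 3 genes stood at the nuclear entry. cob had 2129, 1954 and 1024 counts, against 5603, 4215 and 3935 at AT2G07727. These 2 entries have 1182 and 3243 bases. In TPM, cob had 67.1, 78.4 and 38.3, against 61.9, 59.2 and 51.5 at AT2G07727. For atp8 (ATMG00480) and AT2G07707 the counts were 462, 445 and 407 at both. In the opposite direction, atp6-1 (ATMG00410) had 1307, 1643 and 1453 counts, against 0, 0 and 0 at AT2G07741, and atp1 had 23914, 18652 and 15038, against 10196, 7818 and 6955 at AT2G07698. Reads from the organelle and from a near-identical nuclear copy cannot be told apart in these tables, so the levels of these mitochondrial genes are uncertain. All nuclear genes between AT2G07660 and AT2G07799 together held 0.260, 0.281 and 0.229% of TPM.

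**Figure D4:**
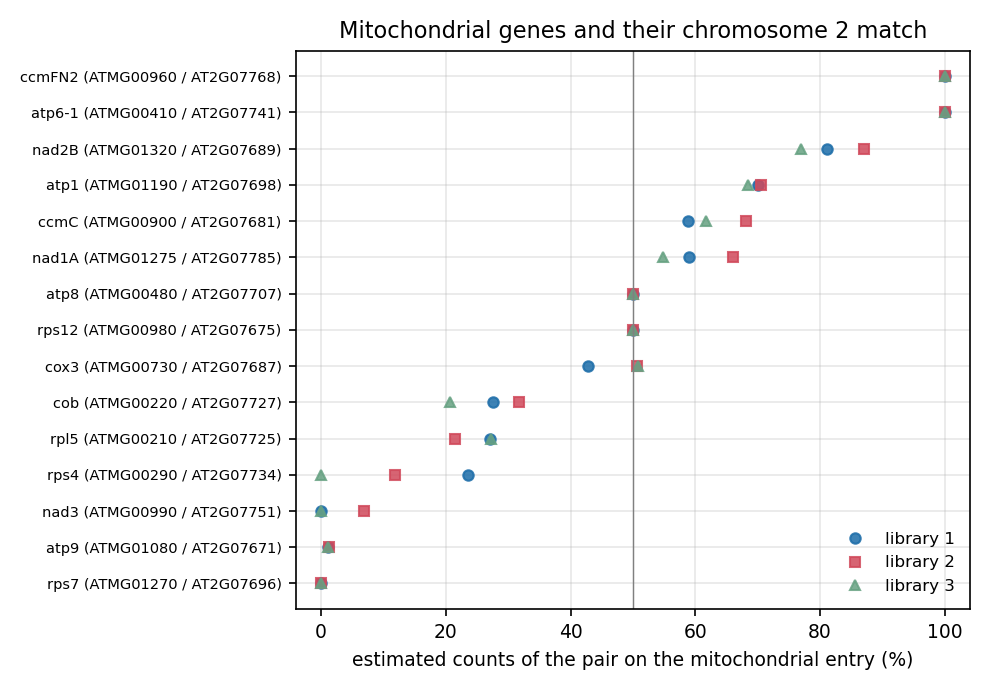
Percent of the estimated counts of a mitochondrial gene and its chromosome 2 match that stand at the mitochondrial entry (x axis), for the named genes; symbols are the 3 libraries and the grey line marks 50%. rps7, atp9 and nad3 lie near 0 and atp6-1 and ccmFN2 at 100; rps4 lies at 23.6% in library 1 and 0 in library 3.

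The spread between libraries was described for each gene. The highest library was over 2-fold the lowest, on TPM + 0.1, for 35 of the 229 organelle genes with a mean of at least 10 counts, against 21.7% of all 19325 such genes in the tables. The organelle share was 10.9% (14 of 129) in the chloroplast and 21.0% (21 of 100) in the mitochondrion. Of the 21 mitochondrial genes, 18 had a mean under 100 counts. The share depended on the mean count. It was 31.8% of organelle genes and 53.0% of nuclear genes at 10 to 100 counts, 5.95% and 14.7% at 100 to 1000 counts in the same order, and 11.4% (9 of 79) and 5.03% above 1000 counts. The 9 include rrn16S at both of its entries, which hold equal values. With library 1, 2 or 3 left out, the number passing was 18 each time, since fewer libraries give a narrower range. Just inside the limit were rpoC2 (2.02-fold) and ATMG00400 (2.02-fold), and just outside were rpl14 (1.98-fold) and ATMG01010 (1.99-fold).

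The 5 organelle genes with the largest ratio of highest to lowest library, among those with a mean of at least 50 counts, were rps4 of the mitochondrion, the short ycf1 entry, ATMG00285, nad1A and ATCG00810. rps4 (ATMG00290) had 215, 69.0 and 0 estimated counts. Its nuclear match AT2G07734 had 697, 516 and 512 counts, and the sum of both was 31.5, 26.2 and 19.9 CPM (counts divided by the library total), a 1.58-fold range. ATMG00285 had 9.92, 3.82 and 2.85 TPM, nad1A of complex I (ATMG01275) had 50.1, 69.6 and 27.6 TPM, and ATCG00810, whose length fits petD or rpl22, had 188, 76.7 and 117 TPM. The library with the highest value thus differed among them. Ranks of genes were alike between libraries, with Spearman correlations of 0.97 to 0.98 across 129 chloroplast genes and 0.96 across 100 mitochondrial genes, given as a description because the genes share libraries and lengths.

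The nanoPARE tables, which list candidate miRNA cleavage sites, give another readout of the same transcripts. They held 21 entries on organelle transcripts among 7148, with Allen scores (scores of mismatches in the pairing) of 5 to 6. The entries lay at a single position in each of 4 annotated genes, of which 2 are the identical copies of ycf2. None of the 21 entries had an adjusted p under 0.05 in the authors' test, against 15.1% of all entries, and the lowest adjusted p was 0.575. Of the 21 entries, 5 were in dcl1-5 libraries and 16 in others. The position in ycf2 (ATCG01280) paired with miR5012 had 0.204 RPM (reads scaled to library size) in dcl1-5 library 1 and 3.59 RPM in dcl1-5 library 3. The rpoC2 position paired with miR159c had 0.0844 RPM in dcl1-5 library 1. The nad1 position (ATMG00516) paired with miR848 had 0.491 RPM in library 1 and 0.173 RPM in library 2 of dcl1-5. The remaining entries were at most 1.33 RPM.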

How the data were processed

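mRNA-seq tables of 3 libraries (Smart-seq2, paired-end reads of 50 bases) were used. The authors ran kallisto on gene models to which those of TAIR10 transposable elements were added, and deposited an estimated count (expected count) and a TPM value per transcript. The kallisto version is not given in the sources used here. Reads that fit several transcripts are divided by the estimate, and strand is not kept. The authors also deposited nanoPARE tables with RPM, an Allen score and an adjusted p-value per site. Small RNA files were not used.

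Values were summed per gene. Shares were computed per library from TPM. Detection meant at least 10 estimated counts in every library, and spread was the ratio of highest to lowest TPM + 0.1. The named genes were the 10 highest per organelle, the leader of each class, the members at 0, the 5 with the largest spread, and those with a nuclear copy. Members and lists were chosen with earlier results of these data known. Mitochondrial coding sequences were aligned to chromosome 2 with blastn 2.17.0. Analyses used Python 3.11.15, pandas 2.3.3 and scipy 1.17.1, and the scripts were tested on simulated data. The mitochondrial reference of RefSeq may differ from that of the authors' TAIR10, so it was used for names and matches only. The pools may share parents, and SDs measure the spread between these libraries. Alternatives covered the unit, short transcripts, rRNA and tRNA, low counts, leading genes, the chromosome 2 copy, scaling, the pseudocount and leaving out each library.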

Additional observations from a re-analysis of the deposited data

How the results depend on the processing

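The chloroplast share of TPM (6.94%) was 2.92% in estimated counts and 2.14% without transcripts under 300 bases. It was 4.31% without organelle entries classed as rRNA or tRNA, 6.06% without psbM and 3.35% without the 10 leading genes. The mitochondrial share (2.62%) was 3.31% in estimated counts, 1.53% without ATMG00020, 0.481% without the 2 leading entries and 2.88% with the chromosome 2 genes added. The log2 ratio of chloroplast to mitochondrial TPM (1.40) reversed to -0.20 in estimated counts and to -0.41 without transcripts under 300 bases. It kept its direction in the other alternatives, from 0.73 without entries classed as rRNA or tRNA to 3.89 without the 2 leading mitochondrial entries. Entries without a name, ATMG00020 among them, were not in the rRNA class and stayed in the first of these alternatives. The alternatives without the 2 and the 10 leading genes were chosen after seeing the data. Leaving out each library gave 6.49 to 7.31% for the chloroplast, 2.51 to 2.73% for the mitochondrion, 1.37 to 1.42 for the log2 ratio and 214 to 223 detected genes. The count of genes over 2-fold (35) was 18 at a mean of at least 50 counts, 60 with no minimum and 18 without any 1 library. It was 33 to 37 under other scalings or without a pseudocount. No paired analysis was possible because the mRNA-seq libraries form 1 group. Under 10 counts in at least 1 library were 76 of 162 mitochondrial and 19665 of 37392 nuclear genes, whose levels are the least precise.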

Other observations

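Of the 107 unnamed mitochondrial entries, 66 had a mean of at least 10 estimated counts, against 100 of all 162 mitochondrial genes, and 20 were at 0 in every library. The entry ATMG00590, which RefSeq notes describe as a cytochrome b/b6 protein, had 0 counts in every library, against 4190, 3223 and 3972 at its nuclear match AT2G07718. ATMG00370, noted as a Ycf1 protein and thus of plastid type, was at 0 as well, against 319, 389 and 339 at AT2G07739. ATMG01110, noted as a mitovirus RNA-dependent RNA polymerase, had 2.54, 38.0 and 9.59 counts, against 371, 264 and 199 at AT2G07749. Over the 31 mitochondrial genes with a chromosome 2 match and a mean of at least 10 counts, the median ratio of highest to lowest library was 1.59 for the mitochondrial entry in TPM and 1.40 for the summed counts of both entries as a share of the library. These values differ in unit and in the number of counts behind them, and the reason for the difference was not tested.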
